A study of Mus musculus with 4 samples.

Results

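The proteasome subunit genes were followed in whole mouse embryos carrying the V1330M allele of Btaf1. They are the genes named Psm, then a, b, c, d or e, then a number, and were chosen by that name on the array, with the immune subunits Psmb8, Psmb9 and Psmb10 left out. Of 21374 genes with a symbol on the array, 40 met the rule, and 39 of these were tested, among 13588 genes tested in all. They comprised 8 alpha subunits, 8 beta subunits, 6 ATPases, 14 non-ATPase subunits and 4 activators. The 1 gene whose symbol goes on after the number, Psmc3ip, was not counted. Of the 39 probes that represent the tested genes, 38 carried an accession that RefSeq gives to the same symbol; the exception was Psma8.

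Mutant pools came from embryos homozygous for V1330M, a missense allele made with the mutagen ENU, and the pools they were set against came from wild-type embryos. All embryos came from mixed C57BL/6J and FVB/NJ stock, FVB/NJ making up 50 to 90%, and were taken whole at 3 to 5 somites where that was possible. Each of the 4 two-colour arrays held 1 mutant and 1 wild-type pool. In the stage_matched set the somite count governed the pairing of pools, and in the age_matched set littermates were preferred and the somite count could differ by up to 5. Each set was hybridised with the mutant in Cy5 (replicate 1) and again with swapped dyes (replicate 2). The 2 arrays of a set read the same pools, so n = 2 throughout, and the labels do not say whether the sets were independent. The hybrid background varied between embryos, and the number of embryos in a pool is not stated.

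The proteasome is the main protease of the cytosol and nucleus and degrades proteins tagged with ubiquitin, p53 among them. Its core is a barrel in which rings of alpha subunits form the gate and rings of beta subunits carry the active sites. A cap sits on the barrel: its ATPases unfold the substrate and feed it in, and its non-ATPase subunits bind ubiquitin, remove it and hold the parts together. Activators are other caps that open the gate without ATP. In mammalian cells, proteasome genes are transcribed together, and the factor encoded by Nfe2l1 raises them when proteolysis is blocked. BTAF1 is an ATPase that takes the TATA-binding protein off DNA.

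The probe sequences below belong to Psme4 and Psmd11, whose probes lay farthest apart, and to Psmd7, whose 2 other probes had lower adjusted p values than the one used. Coordinates are those of the files (mm9), and each sequence is given 5′ to 3′. Psmd7 was read by 3 probes that lie one after another on the minus strand of chromosome 8: A_51_P487933 from 110104402 to 110104461, A_52_P676913 from 110105116 to 110105175, and A_52_P171993 from 110111574 to 110111633.
A_51_P487933: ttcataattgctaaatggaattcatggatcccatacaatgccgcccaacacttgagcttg
A_52_P676913: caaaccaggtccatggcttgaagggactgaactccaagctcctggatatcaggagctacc
A_52_P171993: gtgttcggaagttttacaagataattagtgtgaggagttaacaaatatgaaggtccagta
Psmd11, a gene of the plus strand, had 2 tested probes under its name on opposite strands of chromosome 11. A_52_P370353 lies from 80285272 to 80285331 on the plus strand, and A_52_P447834 from 80283343 to 80283402 on the minus strand, opposite to the gene.
A_52_P370353: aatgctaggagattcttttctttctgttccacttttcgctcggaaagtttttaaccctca
A_52_P447834: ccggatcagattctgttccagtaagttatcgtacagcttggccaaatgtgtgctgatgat
Psme4 was read by 3 probes on the plus strand of chromosome 11. A_51_P166198 lies from 30780168 to 30780227. The other two span an intron, A_52_P344897 from 30776868 to 30778426 and A_52_P111438 from 30721054 to 30723098.
A_51_P166198: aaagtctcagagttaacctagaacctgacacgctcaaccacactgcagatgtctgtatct
A_52_P344897: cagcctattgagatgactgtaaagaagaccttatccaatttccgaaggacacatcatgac
A_52_P111438: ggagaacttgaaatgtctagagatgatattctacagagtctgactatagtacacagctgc

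Of 43379 spots per array, 52.9 to 59.6% of those of mutant pools and 57.1 to 59.5% of those of wild-type pools were well above background, with 0 saturated spots. Embryo markers were well above background in both genotypes for 13 of 14 genes, Gata1 being the exception. Of these 13, 3 were called lower in mutant pools (Hbb-bh1 at -1.64, Myl7 at -0.76 and Kdr at -0.54) and 2 higher (Tbx6 at 0.89 and Meox1 at 0.41). All 11 yolk sac and visceral endoderm markers were called lower in mutant pools, with log2 ratios from -1.64 to -0.45, and none of the decidual or trophoblast markers above background (3 of 4 and 2 of 4) was called. Whether a different tissue makeup bears on any ratio below was not tested. In pools of whole embryos, fewer cells of a type and less RNA per cell cannot be told apart.

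Proteasome transcripts differed little between mutant and wild-type embryos. Values are mutant over wild type on the log2 scale, given as the mean of the 2 sets ± the SD between them (n = 2), with the 95% interval of limma's moderated fit, and a gene was called at a Benjamini-Hochberg adjusted p under 0.05. By limma, 1 member was called higher (Psma8) and 0 were called lower, where the call rate over all genes was 4.88%, made up of 2.1% higher and 2.78% lower. At an unadjusted p under 0.05, limma picked 4 members (10.3%), namely Psma8, Psmb3, Psmd1 and Psmd11, and 22.7% of all genes. The smallest absolute log2 ratio among called genes was 0.40.

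The members lay close together. Their median log2 ratio was -0.024, with quartiles at -0.099 and 0.078, while over all genes the median was 0.017 and the quartiles were -0.11 and 0.13. The members were also brighter, with a median log2 intensity of 13.82 against 9.52 for all genes. Whether brightness bears on their narrower spread was not tested. The SD between the members' medians in the 2 sets was 0.054, and 0.16 with median centring in place of loess. An absolute log2 ratio above 0.25 was reached by 3 of 39 members (7.69%) and 19.1% of all genes, and above 0.5 by 0 members and 483 genes (3.55%). For 37 of 39 members the 95% interval stayed within 0.5 of 0, a change of 1.41-fold either way; the exceptions were Psma8 and Psmd1. The interval reached a median of 0.21 to either side of the mean (0.21 to 0.28 over the members), or about 1.16-fold. Its width came mostly from the spread over all tested probes, with 7.12 prior against 1 residual degrees of freedom. It is also not adjusted for the number of tests, so a call took a larger change than 1.16-fold. The sign was positive for 16 members and negative for 23, and 5 members (12.8%) kept 1 sign on all 4 arrays, against 28.6% of all genes.

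**Figure D1:**
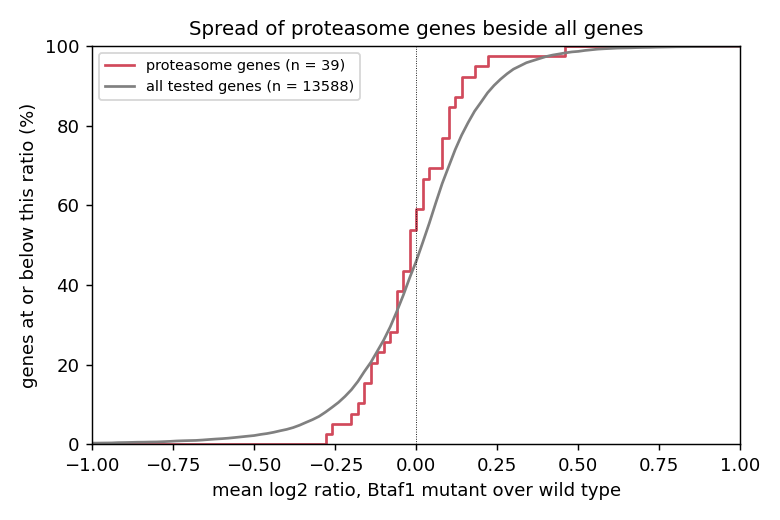
Cumulative share of genes (vertical axis, %) at or below a given mean log2 ratio of mutant over wild type (horizontal axis, shown from -1 to 1) for the 39 proteasome genes (red) and all 13588 tested genes (grey). The proteasome curve climbs between -0.29 and 0.22, with Psma8 alone at 0.44.

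Among the alpha subunits, which form the outer rings and the gate, 1 of 8 was called. Psma8 encodes the alpha subunit of the proteasome of male germ cells, where it takes the place of Psma7. Its log2 intensity was 8.14, 7.88, 8.36 and 7.94 in mutant pools on stage_matched replicates 1 and 2 and age_matched replicates 1 and 2, against 7.58, 7.60, 7.84 and 7.52 in wild-type pools in the same order. On each array the mutant value lay above the wild-type value, and intensities were not normalized between arrays. The mean log2 intensity of the probe was 7.86, against a median of 13.82 over the members. The log2 ratio was 0.56, 0.28, 0.52 and 0.42 on the 4 arrays, with a mean of 0.44 ± 0.035 (SD, n = 2; interval 0.23 to 0.65; 1.36-fold; limma adjusted p = 0.0366). The probe lies on chromosome 18 from 14920708 to 14920767 (mm9), plus strand, was well above background in all 8 channels, and is the only tested probe of the gene. The call was lost with no background correction (0.33, adjusted p = 0.0938 by limma) and with median centring (0.35, 0.138). Under these 2 settings the number of all probes called higher also fell, from 365 to 20 and 120. The Psma8 call was also lost without stage_matched replicate 1 (0.37), age_matched replicate 1 (0.42) or age_matched replicate 2 (0.47). With 1 array left out, its set holds the mutant in 1 dye only, so dye bias no longer cancels in that set's mean.

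The other alpha genes ranged from -0.19 to 0.11. Psma4 was the lowest, at 0.12 and -0.50 in the stage_matched set and 0.21 and -0.59 in the age_matched set. Both of its arrays with the mutant in Cy5 were positive and both with the mutant in Cy3 were negative, while the set means coincided at -0.19 (interval -0.40 to 0.023; limma adjusted p = 0.27). Psma3 was negative on all 4 arrays, at -0.11 and -0.16 in the stage_matched set and -0.41 and -0.0080 in the age_matched set, with a mean of -0.17. Psma2 was at 0.11, Psma5 at -0.017, Psma6 at -0.029, Psma7 at -0.047 and Psma1 at -0.077. The median of the 8 alpha genes was -0.038.

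The beta subunits form the inner rings. All 7 tested beta genes had a mean ratio above 0, from 0.014 to 0.22, with a median of 0.094 and 0 calls. Of all genes, 54% were above 0. The sign was less uniform on single arrays: Psmb3 alone kept 1 sign on all 4, and the beta median was -0.068 on age_matched replicate 2. In the age_matched set Psmb1, Psmb5 and Psmb7 had means below 0 (-0.092, -0.049 and -0.073). With median centring and without age_matched replicate 1, Psmb5 was below 0 (-0.020 and -0.043). Psmb3, a structural beta subunit, was the highest. It stood at 0.37 and 0.040 in the stage_matched set and 0.23 and 0.22 in the age_matched set, all above 0, with a mean of 0.22 ± 0.018 (SD, n = 2; interval 0.0061 to 0.43; limma adjusted p = 0.207). Its other probe read 0.028.

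The 3 catalytic subunits were Psmb5, with chymotrypsin-like activity, Psmb6, with caspase-like activity, and Psmb7, with trypsin-like activity. Psmb5 was the lowest beta gene, at 0.084, 0.069 and 0.066 on 3 arrays and -0.16 on age_matched replicate 2. Its mean was 0.014 ± 0.089 (SD, n = 2; interval -0.20 to 0.23; limma adjusted p = 0.948). Psmb6 averaged 0.13 and Psmb7 0.079, with intervals that included 0. Of the structural subunits, Psmb1 averaged 0.094, Psmb2 0.088 and Psmb4 0.17. Psmb11, the catalytic subunit of the thymus, was not tested: of its 2 probes, 1 was well above background in 1 mutant channel of 4, and in no other channel was either probe well above background.

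The ATPases form the ring of the cap that touches the core. Their median was -0.023, none was called, and 2 of 6 were above 0. The median was -0.14 without age_matched replicate 1 and 0.026 without age_matched replicate 2. Psmc4 was the highest, at 0.23 and 0.048 in the stage_matched set and -0.10 and 0.13 in the age_matched set, with a mean of 0.077 ± 0.085 (SD, n = 2; interval -0.14 to 0.29; limma adjusted p = 0.683). Psmc3 was the lowest, at 0.034 and -0.042 in the stage_matched set and -0.40 and -0.46 in the age_matched set. Its set means lay apart, so the mean of -0.22 ± 0.30 (SD, n = 2) had an interval from -0.49 to 0.054 and a limma adjusted p of 0.32. Psmc5 averaged 0.0075 and Psmc6 -0.085.

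The non-ATPase group holds the scaffold and lid of the cap and, by name, the chaperones Psmd5, Psmd9 and Psmd10, which help assemble its ATPase ring. Its median was -0.072, 10 of 14 genes were below 0, and 0 were called. Psmd1, a large scaffold subunit at the base of the cap, was the lowest of all members. It read 0.081 and -0.55 in the stage_matched set and -0.13 and -0.57 in the age_matched set. It was thus nearer 0 on both arrays with the mutant in Cy5, and the mean was -0.29 ± 0.082 (SD, n = 2; interval -0.51 to -0.077; limma adjusted p = 0.116). It was -0.45 without stage_matched replicate 1 and -0.18 without age_matched replicate 2. Without stage_matched replicate 2 it was -0.13 and no longer the lowest, with Psmc3 at -0.20 among the members below it. Its partner scaffold Psmd2 averaged -0.057.

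Psmd11, a lid subunit, was below 0 on every array, at -0.17 and -0.22 in the stage_matched set and -0.43 and -0.25 in the age_matched set. The mean was -0.27 ± 0.10 (SD, n = 2; interval -0.48 to -0.050; limma adjusted p = 0.143). Psmd12, another lid subunit, was the highest of the group, at -0.011 and 0.21 in the stage_matched set and 0.055 and 0.10 in the age_matched set, with a mean of 0.088 ± 0.013 (SD, n = 2; interval -0.12 to 0.30; limma adjusted p = 0.621). Psmd14, the deubiquitinase of the lid, averaged -0.13 and its inactive partner Psmd7 -0.14. The ubiquitin receptor Psmd4 averaged -0.072. The chaperones stood at -0.11 (Psmd5), 0.026 (Psmd9) and -0.072 (Psmd10).

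The remaining lid genes spanned the group. Psmd3 averaged -0.030, Psmd6 0.077 and Psmd8 0.0014. Psmd13 scattered widely between dye-exchanged arrays of a set. It read -0.43 and 0.51 in the stage_matched set and -0.78 and 0.015 in the age_matched set, with a mean of -0.17. Over all members, the absolute gap between the 2 arrays of a set had a median of 0.22; it was 0.94 and 0.79 for Psmd13, and the widest was 1.04, for Psme4 in the age_matched set.

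Of the activators, Psme1 and Psme2 encode the paired subunits of an interferon-inducible cap, Psme3 a related nuclear cap, and Psme4 a large single-chain cap. None was called, and the median of the group was -0.032. Psme4 was the highest, at -0.089 and 0.31 in the stage_matched set and -0.38 and 0.67 in the age_matched set. Both arrays with the mutant in Cy5 were negative and both with the mutant in Cy3 were positive, and the mean was 0.13 ± 0.022 (SD, n = 2; interval -0.082 to 0.34; limma adjusted p = 0.453). Psme1 was the lowest, at -0.27 and -0.19 in the stage_matched set and -0.086 and -0.041 in the age_matched set, with a mean of -0.15 ± 0.12 (SD, n = 2; interval -0.37 to 0.071; limma adjusted p = 0.402). Psme2 averaged -0.0034 and Psme3 -0.061.

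**Figure D2:**
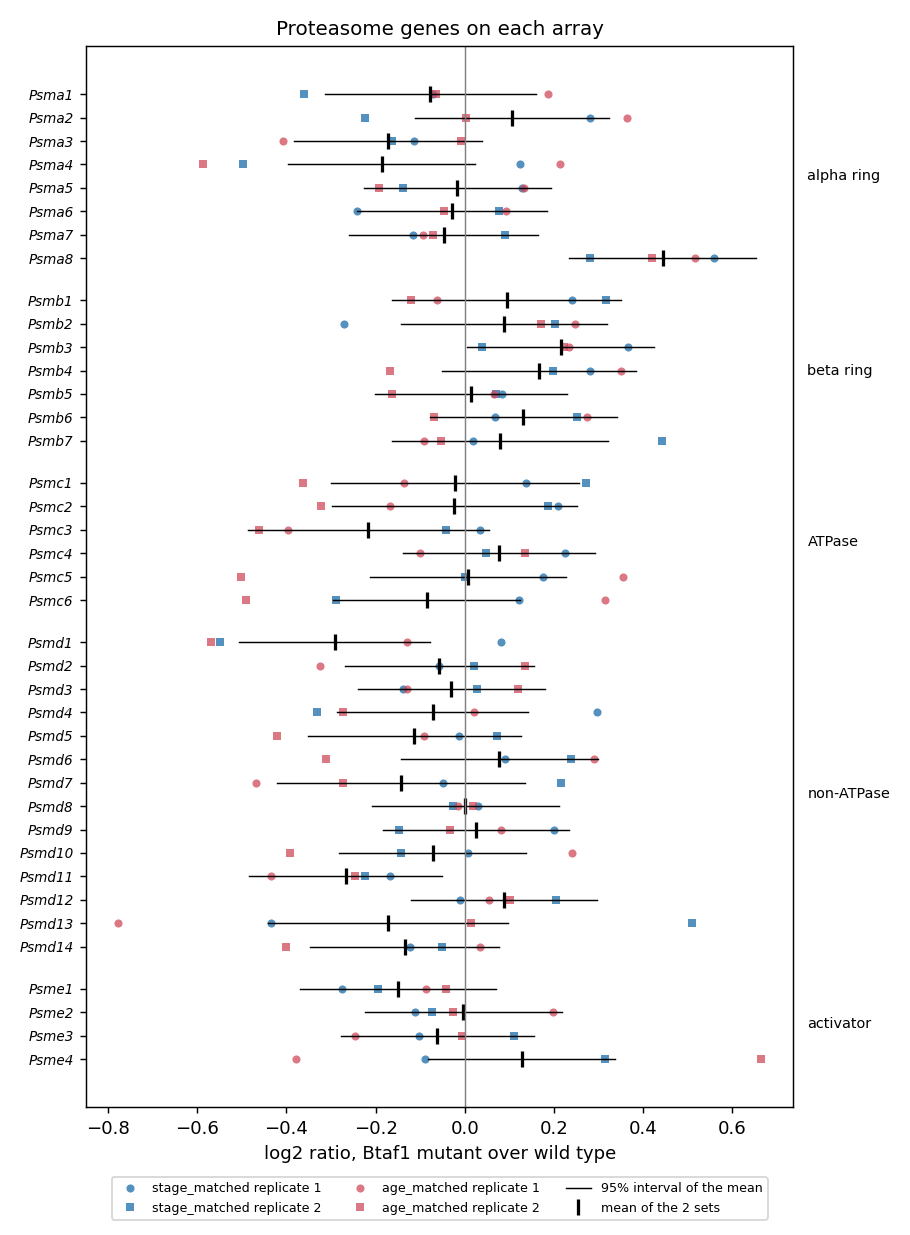
Log2 ratio of mutant over wild type (horizontal axis) for each tested proteasome gene (rows, by group) on the 4 arrays; blue is the stage_matched set and red the age_matched set, circles have the mutant in Cy5 and squares have the dyes exchanged. Ticks are means of the 2 sets and lines 95% intervals; the 4 points of Psma8 lie between 0.28 and 0.56, while most other genes straddle 0.

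The sets were compared because their pools were paired in different ways. The limma test of age_matched minus stage_matched called 0 members, against 2.1% of all genes, and 6 members (15.4%) had an unadjusted p under 0.05, beside 11% of all genes. Its error is the spread between dye-exchanged arrays, which is technical, with an SE of 0.17 to 0.18 for every member. The members' median was -0.073 in the age_matched set and 0.0038 in the stage_matched set. Of the 39 members, 24 had the same sign in both sets.

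Of those 6 members, 3 were ATPases. Psmc1 stood at -0.14 and -0.36 in the age_matched set, against 0.14 and 0.27 in the stage_matched set (difference -0.45; limma adjusted p = 0.19). Psmc2 was at -0.17 and -0.32 in the age_matched set, against 0.21 and 0.19 in the stage_matched set (difference -0.44; limma adjusted p = 0.212). Psmc3, with the values above, differed by -0.42 (limma adjusted p = 0.242). The rest were Psmb1 (difference -0.37), Psmd7 (-0.45) and Psmd13 (-0.42). Psmb1, Psmb7, Psmc1 and Psmc2 were negative on both age_matched arrays and positive on both stage_matched arrays, and 5.7% of all genes split by set in this way in either direction. The ATPase median was -0.17 in the age_matched set and 0.11 in the stage_matched set, and the median of the beta genes was 0.092 and 0.20 in the same order.

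**Figure D3:**
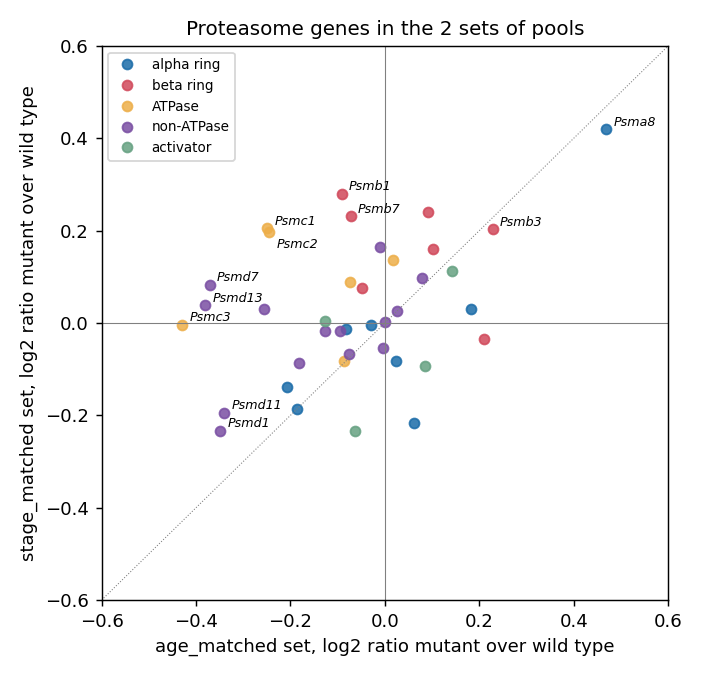
Mean log2 ratio of mutant over wild type of each proteasome gene in the age_matched set (horizontal axis) and the stage_matched set (vertical axis), coloured by group, with equality dotted. Psma8 lies near equality at 0.47 and 0.42, and Psmc1 and Psmc2 lie in the upper left, negative in the age_matched set and positive in the stage_matched set.

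Of the 39 members, 15 had more than 1 tested probe. Their probes differed by at most 0.47, and in 6 of them (Psmc5, Psmc6, Psmd9, Psmd11, Psmd12 and Psme4) the probes had both signs. In Psmd11 the other probe lies on the strand opposite to the gene. In Psmd7 the brightest probe gave the ratio nearest 0. A_52_P676913 read -0.28 and -0.17 in the stage_matched set and -1.03 and -0.15 in the age_matched set, with a mean of -0.41 ± 0.25 (SD, n = 2; limma adjusted p = 0.0762). A_52_P171993 read -0.26, -0.44, -0.46 and -0.41 on the 4 arrays in the same order, with a mean of -0.39 ± 0.059 (SD, n = 2; limma adjusted p = 0.0532). Both lay below 0 on every array, and neither was called.

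The opposite-strand probe of Psmd11, A_52_P447834, read 0.19 (limma adjusted p = 0.304) where the probe used read -0.27. Because it lies opposite to the gene, it is not a second reading of the Psmd11 transcript. Its mean log2 intensity was 7.09, against 14.16 for the probe used. Psmd11 was the 1 member with tested probes on both strands. The accessions given for A_52_P447834 and A_52_P171993 did not match RefSeq's table. In Psme4, A_52_P344897 read 0.096, near the 0.13 of the probe used, and A_52_P111438, which lies farthest upstream, read -0.35 (limma adjusted p = 0.113).

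**Figure D4:**
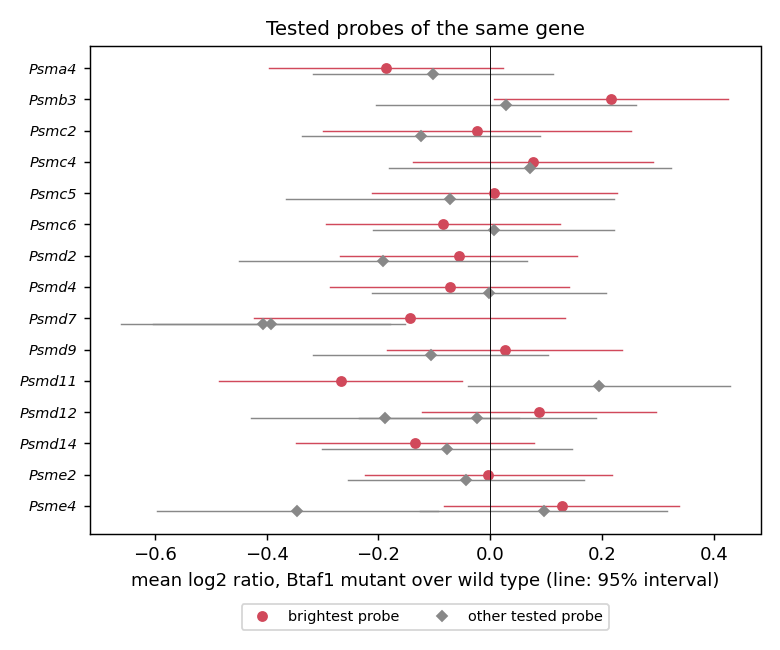
Mean log2 ratio of mutant over wild type (horizontal axis, with 95% intervals) for every tested probe of the 15 proteasome genes (rows) that had more than 1; red circles are the brightest probe and grey diamonds the others. The widest separations are in Psme4 (0.47) and Psmd11 (0.46), whose other probe lies on the strand opposite to the gene, and both other probes of Psmd7 lie near -0.4.

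Lists of genes around the proteasome were read from the same fit. Over all genes, 4.88% were called in it, 2.1% higher and 2.78% lower. Of 5 chaperones that assemble the core, 0 were called; Pomp, which guides beta ring maturation, was lowest at -0.22 and Psmg4 highest at 0.22. Of the immune subunits, Psmb10 alone was tested, at 0.25 ± 0.087 (SD, n = 2; limma adjusted p = 0.158), while Psmb8 and Psmb9 were not tested. Of 8 proteins that bind the cap, 7 were tested (Paaf1 was not) and 0 called, from -0.23 (Shfm1) to 0.16 (Ube3c). Of 6 genes of ubiquitin and its activating enzymes, 0 were called, from -0.25 (Rps27a) to 0.19 (Uba6).

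Of 9 shuttle and segregase genes, whose products carry or extract tagged proteins, 0 were called. The protease Ddi2 was the lowest at -0.31 ± 0.084 (SD, n = 2; limma adjusted p = 0.0999), and the shuttle receptor Rad23b was the highest at 0.31 ± 0.24 (SD, n = 2; limma adjusted p = 0.141). Among 9 transcription factors of proteasome genes, 1 was called, where the call rate over all genes was 4.88%. Mafg, a small Maf protein that pairs with the factor encoded by Nfe2l1, was lower in mutant pools, at -0.81 and -0.63 in the stage_matched set and -0.73 and -0.42 in the age_matched set. All 4 arrays were below 0, and the mean was -0.65 ± 0.099 (SD, n = 2; interval -0.86 to -0.43; limma adjusted p = 0.0158). Of the other small Maf genes, Mafk averaged -0.27 and was below 0 on every array but not called (limma adjusted p = 0.168). Maff averaged 0.086. Nfe2l1 itself averaged 0.12 and Nfe2l2 0.045, and Nfyb was the highest of the list at 0.25. The call of Mafg was lost with no background correction (-0.58, limma adjusted p = 0.0608) and without age_matched replicate 1 (-0.57, 0.232).

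Of 9 antioxidant genes driven by the factor encoded by Nfe2l2, 8 were tested (Slc7a11 was not) and 0 called. They ran from -0.31 for Gclc, of glutathione synthesis, to 0.28 for Sqstm1, an autophagy receptor. Their median was 0.0082, and it lay between 0.025 and 0.12 with single arrays left out and at -0.047 with median centring. At an unadjusted p under 0.05, limma picked 4 of the 8 (Gclc below 0, and Nqo1, Srxn1 and Sqstm1 above), against 22.7% of all genes. The same cut picked 3 of 5 core chaperones, 3 of 9 transcription factors and 2 of 9 shuttle and segregase genes. It also picked Psmb10, 1 of 6 genes of ubiquitin and its activating enzymes, and 0 of 7 proteins that bind the cap.

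**Figure D5:**
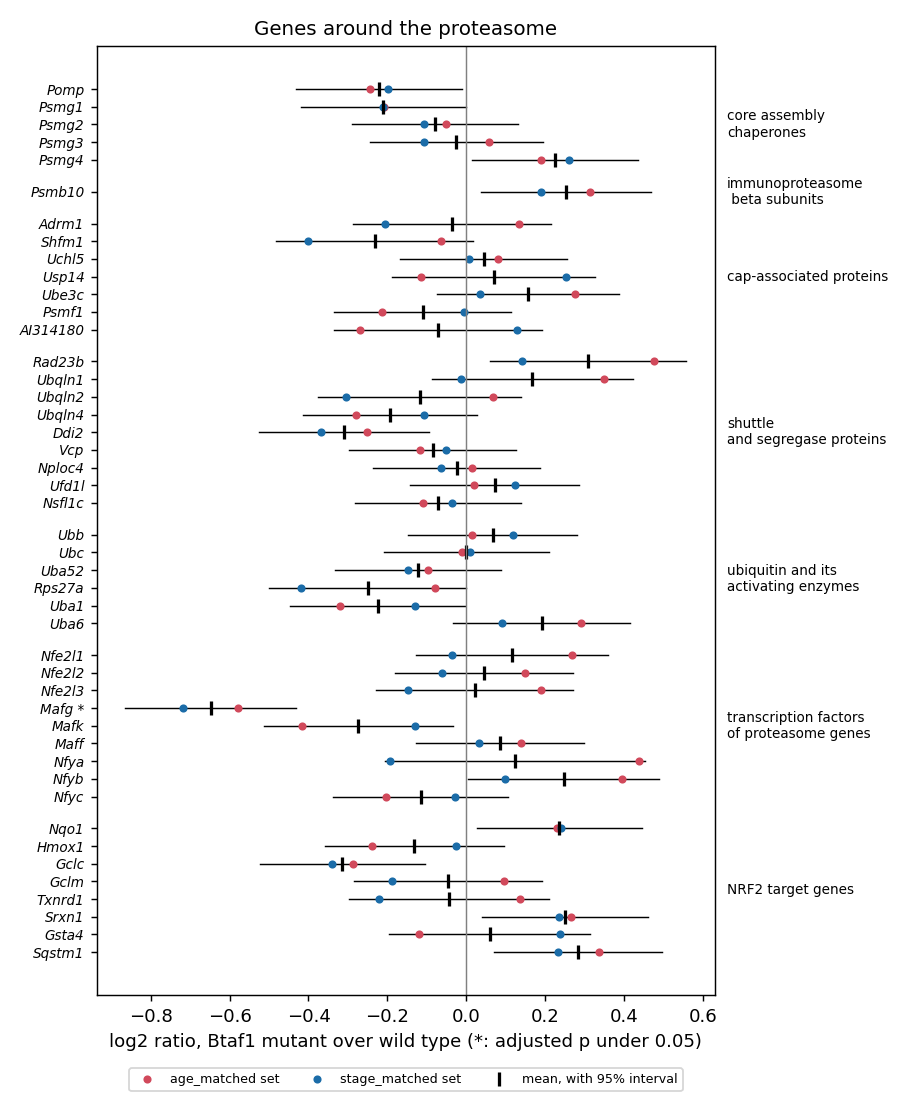
Log2 ratio of mutant over wild type (horizontal axis) for genes around the proteasome (rows, by list), with each set's mean as a point (red age_matched, blue stage_matched), the mean of both as a tick and its 95% interval as a line. Only Mafg, marked with an asterisk, was called, at -0.65.

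The promoters of 3 members are shown as examples of windows with motifs of the factors above or with a TATA box match. RefSeq (GRCm38.p6) gave 35 windows, from 250 bases before to 50 after the start, for 32 members. On either strand, 4 motifs were sought: the antioxidant response element bound by the Nfe2l1 and Nfe2l2 products with small Maf proteins (TGACNNNGC), the CCAAT box of NF-Y (CCAAT), the TATA box (TATAAA) and the GC box (GGGCGG). Capitals mark matches.
Psmb3, chr11:97703184-97703483, plus strand: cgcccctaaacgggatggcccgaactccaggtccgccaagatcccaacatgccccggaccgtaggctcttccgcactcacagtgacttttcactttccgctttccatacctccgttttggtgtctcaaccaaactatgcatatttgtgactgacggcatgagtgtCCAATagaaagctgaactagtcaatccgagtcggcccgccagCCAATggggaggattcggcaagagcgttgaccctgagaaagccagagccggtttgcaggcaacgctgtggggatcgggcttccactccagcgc
Psmb6, chr11:70525107-70525406, plus strand: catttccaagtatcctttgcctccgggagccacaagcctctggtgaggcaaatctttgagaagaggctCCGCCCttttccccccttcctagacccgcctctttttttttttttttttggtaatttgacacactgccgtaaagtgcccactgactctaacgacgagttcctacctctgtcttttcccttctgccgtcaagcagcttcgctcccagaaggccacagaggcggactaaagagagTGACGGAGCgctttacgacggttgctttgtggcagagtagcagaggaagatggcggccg
Psmd1, chr1:86064369-86064668, plus strand: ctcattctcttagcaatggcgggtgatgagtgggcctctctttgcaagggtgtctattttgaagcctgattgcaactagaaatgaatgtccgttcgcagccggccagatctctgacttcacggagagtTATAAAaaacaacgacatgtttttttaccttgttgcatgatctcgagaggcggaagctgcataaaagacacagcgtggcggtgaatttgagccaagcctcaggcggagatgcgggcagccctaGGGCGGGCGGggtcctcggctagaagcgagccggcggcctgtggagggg
Psmb3, the highest beta gene, has 2 CCAAT matches, Psmb6 has an antioxidant response element 9 bases before the start and a GC box on the reverse strand, and Psmd1, the lowest member, has a TATA match and 2 overlapping GC boxes.

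The antioxidant response element was matched in 6 of 35 member windows (17.1%) and in 12.4% of all 32851 windows, and the member genes that hold it had ratios from -0.085 to 0.13. The CCAAT box was matched in 12 (34.3%), against 37.4% of all windows. The TATA box was matched in 3 (8.57%), those of Psmb4, Psmd1 and Psmd6, against 13.6%. These matches began at -78 and -76 from the start in Psmb4, at -122 in Psmd1 and at -182 in Psmd6. The ratios of the genes were 0.17, -0.29 and 0.077 in the same order. The GC box was matched in 22 (62.9%), against 35.7%, and the member windows also had more G and C, with a median of 59% against 52.7%. A match describes letters in the window and no binding was measured. Whether a match bears on any ratio was not tested.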

How the data were processed

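Each array gave spot and background intensity per dye, as deposited by the authors and, per the file headers, without normalization; 300 ng of total RNA went into each labelling, per the labels' protocols. Processed intensities in the same files were background-subtracted and dye-normalized in the scanning step, as the file headers record. In the authors' deposited value table stands the scanner's log10 ratio, with the sign turned on dye-exchanged arrays to give mutant over wild type throughout; its medians were 0, and it differed from the scanner's log10 ratio by at most 4.998e-06. That log10 ratio equalled the ratio of the processed signals within 0.001 on 74.8 to 77.9% of spots per array, and was set to 0 on all others, of which 0 non-control spots were well above background in either dye. The submitters' processing notes name Feature Extraction 9.5.3 and the file headers give 10.5.1.1. All arrays lay on 1 slide with 1 scan.

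Unprocessed intensities were turned into log2 ratios in R 4.3.3 with limma 3.58.1 (normexp with offset 50, then loess within each array, with control and marked spots at weight 0). Signs were turned on dye-exchanged arrays, and the 2 arrays of a set were averaged. A probe was tested when well above background in 1 genotype on all 4 arrays (21940 of 41174 probes). The fit on the 2 set means had 1 residual and 7.12 prior degrees of freedom and was two-sided; p-values were adjusted (Benjamini-Hochberg) over every tested probe, with a threshold of 0.05. The sets were compared in a fit of all 4 arrays that had set and dye as terms. The p-values of mutant against wild type rest on the spread between the 2 set means, moderated mostly by the spread over all tested probes. Those of the comparison of sets rest on the spread between dye-exchanged arrays, moderated in the same way. Whether the sets were independent is not stated, and the number of arrays limits the precision. Only the fits were checked on simulated data, namely log2 ratios drawn with independent sets. The steps before the fits were not part of that check.

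A gene is represented by its brightest tested probe. Values on every array are given for called members and for the highest and lowest of each group, with others chosen after their values were seen (Psma3, Psmd11, Psmd13, the 2 other probes of Psmd7, and those that differ most between sets). The members and lists were chosen with earlier results of these data known. A single listed gene is not reported here. No annotation of the files' build was at hand, so exons are not given. Alternatives covered background correction, processed signals, the value table, centring, the filter on dim probes, marked spots, the intensity trend, the choice of probe and each array left out.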

Additional observations from a re-analysis of the deposited data

How the results depend on the processing

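The count of members called lower stayed at 0 under all 13 alternatives, as did the count called different between the sets under the 7 that could be run for it, and the medians of all members lay between -0.059 and 0.015. Members called higher went to 0 with no background correction and with median centring, and lay between 0 and 1 with single arrays left out (1 without stage_matched replicate 2, 0 without each other array). Calls over all probes, 365 higher and 690 lower, were 20 and 42 with no background correction, 747 and 1077 with processed signals or the value table, 209 and 386 when dim probes were kept, and 647 and 1229 with an intensity trend. Median centring gave 120 higher and 824 lower. With single arrays left out they ranged from 10 to 393 higher and from 13 to 814 lower; the fewest came without age_matched replicate 1, and without stage_matched replicate 1 there were 183 and 393, and 150 and 439 without age_matched replicate 2. Under median centring the group medians were -0.16 (non-ATPase) and -0.10 (activators). With single arrays left out the alpha median ranged from -0.068 to 0.0098 and the activator median from -0.13 to -0.00054; the values 0.0098 and -0.13 came without age_matched replicate 2. Transcription factors called lower went to 0 with no background correction, and numbered between 0 and 1 with single arrays left out (0 without age_matched replicate 1). Of the shuttle genes, 1 was called lower with processed signals, the value table and an intensity trend (Ddi2 each time), and with single arrays left out between 0 and 1 were called higher (Rad23b, without stage_matched replicate 2). Of the antioxidant genes, 1 (Nqo1) was called higher with processed signals and the value table. The sign turned for Psmb5 with median centring (-0.020) and without age_matched replicate 1 (-0.043), for Psma4 (0.014) and Psme4 (-0.13) without age_matched replicate 2, and for Psmd12 (-0.041) and Psme4 (-0.040) with the mean of all tested probes. With single arrays left out, Psma4 ranged from -0.39 to 0.014, Psmb5 from -0.043 to 0.071 and Psme4 from -0.13 to 0.39. The cause was not tested for any of these. Each ratio already sets a mutant pool against the wild-type pool on its own array. The dye-exchanged arrays of a set were averaged. Beyond that pairing, the labels give no replicate numbers that could serve as a further block. With 2 sets, a change under about 0.2 on the log2 scale in a single member could not be separated from 0 by its unadjusted interval. A call took more, as the smallest absolute log2 ratio among called genes was 0.40.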
